A study of Aedes aegypti with 19 samples.

Results

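Ovaries taken 10 days after a blood meal were compared with ovaries of young females that had received only sugar and were collected on day 3. The libraries were chosen by their labels: blood-fed (BF) day 10, replicates 1, 2 and 4, and sugar-fed (SF) day 3, replicates 1, 2 and 4, which makes 6 of the 19 libraries of the series. BF day 10 females took a single meal of warmed sheep blood, were given a dish for egg laying, and any eggs left in their ovaries were removed at dissection. SF day 3 females received no blood and were collected 7 days earlier. All females were *Aedes aegypti* from Poza Rica, Mexico, were 4 to 7 days old at the meal and had 10% sucrose throughout. Each library held the pooled ovaries of several females, so the spread between libraries is not the spread between single mosquitoes. The paper calls replicates 1, 2 and 4 biological replicates, and the labels do not say whether they were separate cohorts. The p-values measure the spread between these libraries only. The groups differ both in the blood meal and in 7 days of time, and the 2 cannot be told apart from these 6 libraries alone. For that reason the SF day 10 libraries, unfed with blood but collected on the same day as the BF group, are given beside them (n = 3), and so are the BF day 20 and SF day 20 libraries (n = 3 each). These libraries are not in the contrast, but all 19 libraries were fitted together and share 1 estimate of the spread.

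*Aedes aegypti* needs blood to mature eggs. Juvenile hormone prepares the fat body and ovary of the young female, ecdysteroids made after the meal lead the fat body to produce yolk proteins, the oocytes take these up, and the follicle cells surround each egg with a shell. Once the eggs are laid, the follicles next in line rest in the ovary until another meal. Comparing BF day 10 with SF day 3 asks what a completed gonotrophic cycle leaves changed relative to the young resting ovary.

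Between 43268131 and 53336891 reads per BF day 10 library (median 49128443) and between 48945074 and 50693744 per SF day 3 library (median 49965318) fell on genes. Expression is given as CPM, gene reads scaled to a common library total, after TMM scaling, a correction for differences in library composition. The germ line was plainly represented in both groups. *osk*, which assembles germ plasm in *Drosophila*, had 3624, 3422 and 3824 CPM in BF day 10 libraries and 3590, 3370 and 3714 CPM in SF day 3 libraries, which overlapped. None of 8 germ cell markers (*osk*, *mael* and PIWI genes) was called in edgeR's test, where 5.37% of all genes were. An unadjusted p under 0.05 was found for 2 of the 8 markers and for 21.2% of all genes. Of marker genes of other tissues, the salivary markers summed to between 1.35 and 1.95 CPM in BF day 10 libraries and to between 0.728 and 0.840 CPM in SF day 3 libraries, and the neuron and eye markers to between 25 and 30.2 CPM in BF day 10 and between 23.1 and 25.9 CPM in SF day 3 libraries. The salivary protein gene *D7_1* had 60 reads in BF day 10 and 3 in SF day 3 libraries, a ratio of 20.1 (95% exact interval 6.54 to 99.97, counting error only), and passed the test (FDR p-value 0.0213), while *D7_2* had 1 read in BF day 10 and 4 in SF day 3 libraries. Only 22.4% of the *D7_1* reads were unique to it, and the part of salivary RNA in the results was not tested. In pooled tissue, fewer cells of a type and less RNA per cell cannot be told apart. Reads outside exons made up 5.48% ± 0.485 (SD, n = 3) of gene reads in BF day 10 and 4.84% ± 0.751 (SD, n = 3) in SF day 3 libraries, a difference that the spread covered (exact permutation test, two-sided, p = 0.3, where 0.1 is the smallest possible). Reads of rRNA genes made up 0.373% ± 0.0338 in BF day 10 and 0.451% ± 0.0304 in SF day 3 libraries (SD, n = 3 each), without overlap (exact permutation p = 0.1), and their part in the results was not tested. In a principal component analysis of the 6 libraries, the first component (32.8% of the variance) separated the groups by a gap of 58.6% of its range. The second (21.7%) set replicate 4 of both groups apart, at -31.5 for BF day 10 and -26.5 for SF day 3, whereas the other 4 libraries lay between 9.97 and 18.3.

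A small fraction of the genes tested were called. At the median, falls were modest and among well expressed genes, and rises were larger and among less expressed ones. Of 13904 genes tested, 747 (5.37%) were differentially expressed genes (DEGs), meaning an FDR p-value under 0.05 in edgeR's quasi-likelihood test with Benjamini-Hochberg adjustment. Of these, 316 rose (2.27% of genes tested) and 431 fell (3.1%). In the same test 2942 genes (21.2%) had an unadjusted p under 0.05. Rises had a median log2 fold change of 0.72 and a median level of 10.3 CPM, falls a median of -0.36 and 48.3 CPM, against a median level of 15 CPM over all genes tested. Past an absolute log2 fold change of 1 there were 161 DEGs (1.16%), 107 higher (0.77%) and 54 lower (0.388%). The 6 libraries did not overlap for 314 of the 316 rises and for 425 of the 431 falls, and did not overlap for 3554 of all genes tested (25.6%). Which direction prevailed depended on the scaling. Rises were 42.3% of the DEGs with TMM, 57.5% with upper-quartile scaling (393 of 683) and 55.6% with library size alone (380 of 684). The number of DEGs also depended on single libraries. It was 145 without BF day 10 replicate 2, 154 without SF day 3 replicate 4, 197 without SF day 3 replicate 2, 240 without BF day 10 replicate 1, and 119 without replicate 4 of both groups. It was higher with DESeq2 (1260) and with the replicate number as a block (1292), and was 515 with the 6 libraries fitted alone, of which 398 were among the 747.

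**Figure D1:**
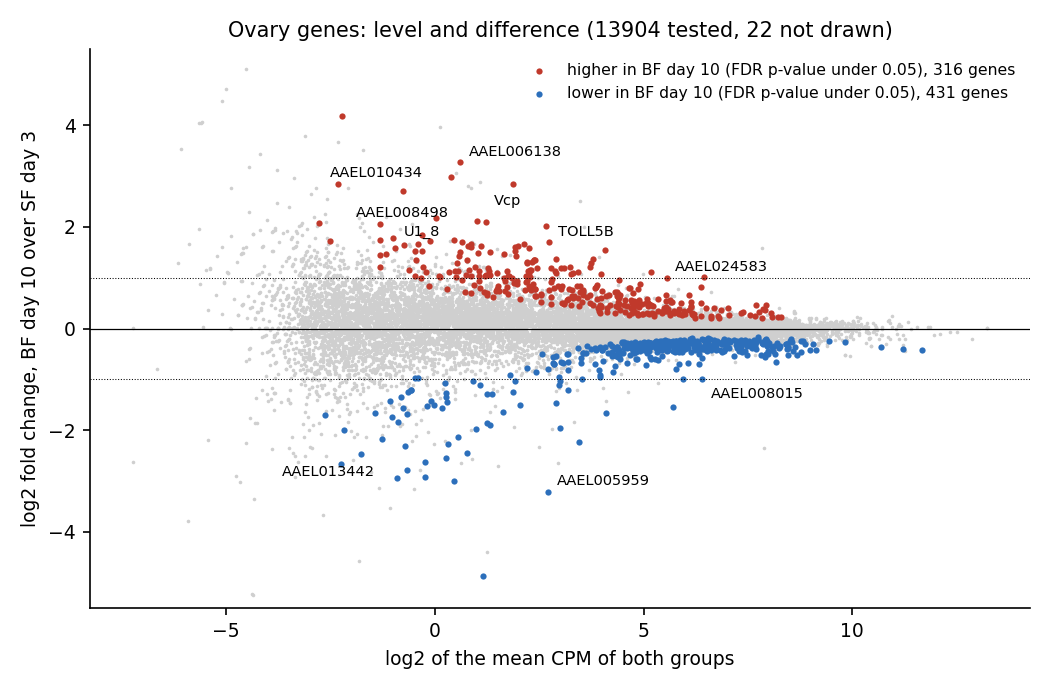
Each point is 1 tested gene, with the log2 of its mean CPM over both groups on the x axis and its log2 fold change, BF day 10 over SF day 3, on the y axis. Red points are the 316 rises and blue points the 431 falls with an FDR p-value under 0.05, and dotted lines mark a log2 fold change of 1 and -1. The blue points crowd below 0 among well expressed genes and the red points spread upwards among weaker ones. Of 13904 genes, 22 are not drawn, 3 with 0 reads in both groups and the rest beyond 5.5 on the y axis, among them the DEGs *U2_8* and AAEL022922.

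By biotype, protein-coding genes supplied 297 rises and 413 falls (5.79% of 12253 tested), and LncRNAs 12 rises and 18 falls (1.92% of 1561 tested). Small nuclear RNAs supplied 7 rises and 0 falls (15.2% of 46 tested), where 5.37% of all genes were called. These 7 were 6 U1 genes that lie together on chromosome 3 and *U2_8*, few of whose reads were unique. Other structured RNAs supplied none. Genes with a single exon were 7.59% of the rises and 1.86% of the falls, against 4.39% of all genes tested. The median share of a gene's reads outside its exons was 5.88% for rises, 2.11% for falls and 4.14% for all genes.

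Most of the DEGs also differed by feeding in ovaries collected on day 20, in libraries outside the contrast that share with it the estimate of the spread and the filter. Of the 316 rises, 222 (70.3%) were also higher in BF day 20 than in SF day 20 at an FDR p-value under 0.05 and 0 were lower, where 9.31% of all genes were higher. Of the 431 falls, 332 (77.0%) were also lower in BF day 20 and 1 was higher, where 12.1% of all genes were lower. The sign alone was positive for 310 of the 316 rises and negative for 422 of the 431 falls, against 52.4% positive and 47.6% negative over all genes. Of the 54 falls past a log2 fold change of -1, 26 (48.1%) were lower in BF day 20 by the test and 50 had a negative sign. The median log2 fold change of BF day 20 over SF day 20 was 0.66 for the rises and -0.38 for the falls. Whether same-numbered libraries of day 10 and day 20 came from 1 cohort was not tested.

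On day 10 itself, BF over SF day 10 had a median log2 fold change of 0.73 for the rises and -0.39 for the falls. SF day 10 over SF day 3, which is 7 days of time without blood, had medians of 0.00 for both, and a median of -0.39 for the 54 falls past -1, of which 47 were negative. These 2 comparisons share libraries with the one described and add up to it, so they are given as values side by side and not as support. By the same test, 2681 genes (19.3%) differed between BF day 10 and SF day 10, and 10 genes (0.0719%) between SF day 10 and SF day 3, with 1996 of 13904 (14.4%) at an unadjusted p under 0.05 in the second.

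Among DEGs with at least 50% unique reads, at least 10 reads in each library of the higher group and no overlap, the largest rises were of genes that young resting ovaries expressed weakly. With no read minimum in the lower group, ranking by log2 fold change favours such genes. *U2_8*, *D7_1* and the LncRNA AAEL022922 had larger fitted log2 fold changes, which depend on the prior count since each had 3 reads or fewer in the SF day 3 libraries together. AAEL006138, a protein-coding gene with 3 exons on chromosome 3 (68205694 to 68212449, minus strand, AaegL5.0), had 3.15, 3.13 and 2.04 CPM in BF day 10 libraries and 0.240, 0.270 and 0.335 CPM in SF day 3 libraries. All BF libraries lay far above all SF libraries, with a log2 fold change of 3.28 ± 0.47 (SE, n = 3 each, FDR p-value 0.0015 in edgeR's test). SF day 10 libraries averaged 0.174 CPM, and BF day 20 libraries 2.38 CPM against 0.135 CPM in SF day 20. A gene on the opposite strand, AAEL019501, overlaps it. AAEL010434, also with 3 exons on chromosome 3 (67489863 to 67496592, plus strand), had 3.13, 1.33 and 2.46 CPM in BF day 10 and 0.240, 0.208 and 0.414 CPM in SF day 3 libraries, or 2.99 ± 0.45 (log2 fold change ± SE) at an FDR p-value of 0.00222. Its levels in BF day 20 and SF day 20 averaged 2.26 and 0.335 CPM. The files give neither gene a name. Both calls held without any single library, with an FDR p-value of at most 0.0113 for AAEL006138 and 0.0159 for AAEL010434.

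*Vcp* encodes vitellogenic carboxypeptidase, a protease precursor that the fat body secretes after a blood meal and that oocytes store with the yolk. It has 1 exon (chromosome 2, 59489785 to 59491311, minus strand) and sits inside AAEL006543, which lies on the other strand. *Vcp* had 4.75, 4.26 and 2.36 CPM in BF day 10 libraries and 0.920, 1.16 and 0.553 CPM in SF day 3 libraries. The gene rose by 2.11 ± 0.52 (SE) on the log2 scale, at an FDR p-value of 0.0261. It averaged 0.786 CPM in SF day 10, and on day 20 it was also higher in BF (3.43 CPM) than in SF ovaries (0.484 CPM), with a log2 fold change of 2.84 and an FDR p-value of 0.00223. The day 10 call was lost without any single library other than BF day 10 replicate 4, with an FDR p-value of up to 0.115 without one.

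AAEL008498, with 6 exons on chromosome 2 (395244350 to 395254316, plus strand), had 2.94, 3.77 and 3.08 CPM in BF day 10 and 0.680, 0.832 and 0.750 CPM in SF day 3 libraries. These groups lay more than 3 times apart with little spread, and the log2 ratio was 2.11 ± 0.25 (SE; FDR p-value 0.000401). It was called under each of the 20 alternatives that refitted it. Its neighbours on that stretch, named here after their values were seen, rose too. AAEL008496, upstream on the same strand, averaged 24.9 CPM in BF day 10 and 15.1 CPM in SF day 3 (log2 fold change 0.72, FDR p-value 0.0161). AAEL025921, whose end overlaps that of AAEL008498 on the other strand, averaged 1.42 CPM in BF day 10 and 0.430 CPM in SF day 3 (1.72, FDR p-value 0.0138), but only 40% of its reads were unique.

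The other large rises were AAEL010532 (6.38 ± 1.34 CPM in BF day 10, 0.887 ± 0.0359 CPM in SF day 3, SD, n = 3 each), AAEL007703 (1.01 ± 0.300 CPM in BF day 10, 0.154 ± 0.0470 CPM in SF day 3), AAEL011169 (1.67 ± 0.246 CPM in BF day 10, 0.370 ± 0.151 CPM in SF day 3) and AAEL015018 (0.238 ± 0.0443 CPM in BF day 10, 0.0545 ± 0.0440 CPM in SF day 3), with log2 fold changes from 2.09 to 2.84. AAEL007703 lies opposite *REL1A*, an NF-kappaB factor of the Toll pathway, and AAEL010532 opposite AAEL010541, so their reads are uncertain as to strand. On day 20 only AAEL011169 of these 4 passed the test (1.70, FDR p-value 0.0196), and the others had log2 fold changes from 1.21 to 1.72. Each of the 4 calls was lost without at least 3 of the single libraries, SF day 3 replicate 4 and BF day 10 replicate 1 among them, with FDR p-values of up to 0.174.

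**Figure D2:**
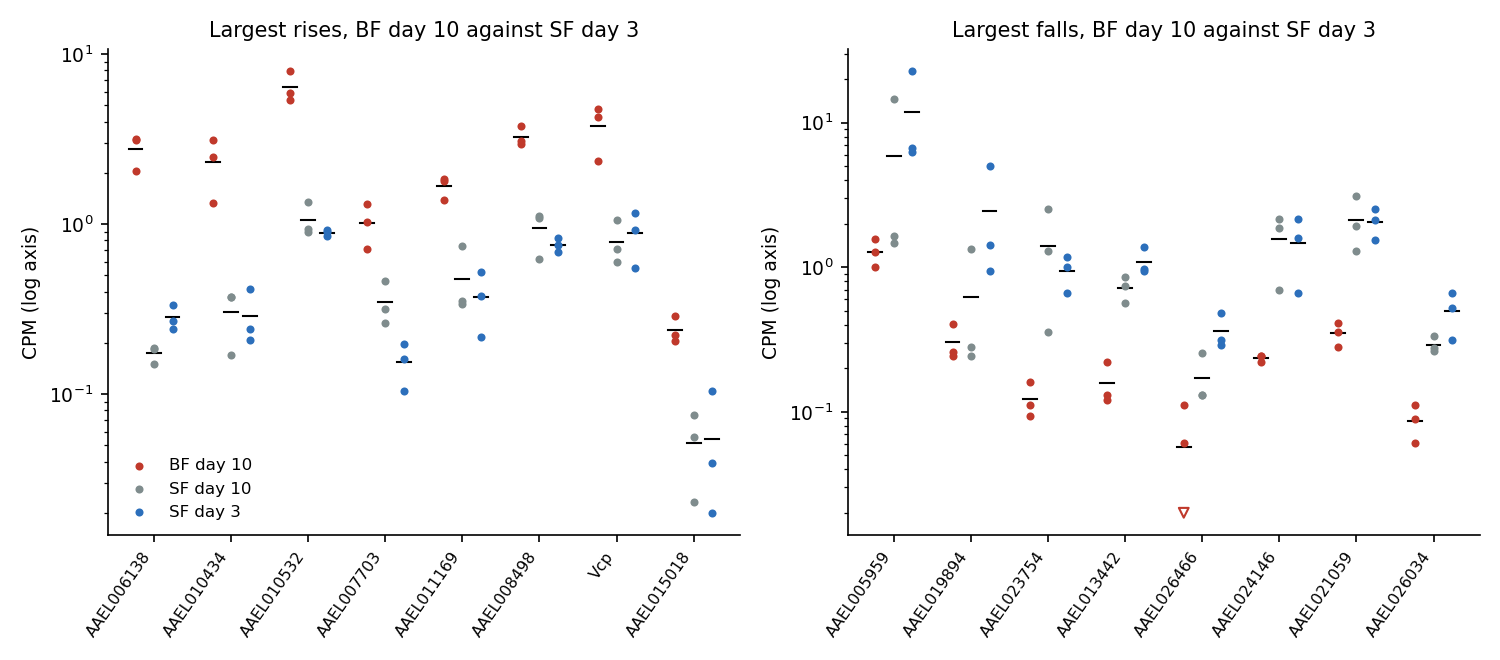
CPM on a log axis for the 8 largest rises (left) and the 8 largest falls (right) under the conditions given above, 1 point per library, in the order BF day 10 (red), SF day 10 (grey) and SF day 3 (blue), with a bar at the mean of each group. The open triangle stands for the BF day 10 library of AAEL026466 with 0 reads. That BF day 10 and SF day 3 points do not overlap was a condition of choosing these genes. For AAEL006138 the SF day 10 points, which average 0.174 CPM, lie below those of SF day 3.

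The largest falls, ranked in the same way, were also of weakly expressed genes. AAEL013442, with 2 exons on chromosome 2 (155869827 to 155870431, plus strand), had 0.130, 0.222 and 0.121 CPM in BF day 10 and 1.38, 0.936 and 0.967 CPM in SF day 3 libraries. The groups were well apart, with a log2 ratio of -2.79 ± 0.50 (SE) at an FDR p-value of 0.00584, and the call held without any single library, with an FDR p-value of at most 0.0345. Its levels in BF day 20 and SF day 20 were 0.180 and 0.375 CPM, with an FDR p-value of 0.151. AAEL005959 on chromosome 3 (227664701 to 227712611, plus strand) had the largest fall under the same conditions, -3.21 ± 0.85 (SE, FDR p-value 0.041). It had 1.56, 1.26 and 1.01 CPM in BF day 10 and 6.24, 6.74 and 22.7 CPM in SF day 3 libraries. SF day 3 replicate 4 stood far above the rest of its group, and the fall on exon reads alone was -0.54 (FDR p-value 0.473). AAEL019894 had 0.261, 0.244 and 0.403 CPM in BF day 10 and 0.940, 1.43 and 4.99 CPM in SF day 3 libraries (-3.01, FDR p-value 0.04), again with SF day 3 replicate 4 highest. Both calls were lost without any single library other than SF day 3 replicate 1, and without SF day 3 replicate 4 the FDR p-values were 0.16 for AAEL005959 and 0.198 for AAEL019894. AAEL026466 had 0, 0.111 and 0.0605 CPM in BF day 10 and 0.480, 0.291 and 0.316 CPM in SF day 3 libraries (-2.67, FDR p-value 0.0196), and was lower on day 20 as well (-1.78, FDR p-value 0.0246).

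Of the 8 largest falls, 4 were LncRNAs, that is, long transcripts without a coding frame. AAEL023754 on chromosome 1 (245145170 to 245145808, minus strand) had 0.0931, 0.111 and 0.161 CPM in BF day 10 libraries. SF day 3 libraries held 0.660, 0.998 and 1.18 CPM of it (log2 fold change -2.94 ± 0.77, SE, FDR p-value 0.0359). AAEL024146 on chromosome 1 (307545371 to 307547344, minus strand) had 0.242, 0.244 and 0.222 CPM in BF day 10 and 1.6, 0.665 and 2.15 CPM in SF day 3 libraries, or -2.63 ± 0.53 (log2 fold change ± SE) at an FDR p-value of 0.0118. It was lower on day 20 as well, at 0.242 CPM in BF and 1.14 CPM in SF ovaries (-2.24, FDR p-value 0.00726). AAEL021059 (-2.55) and AAEL026034 (-2.48) followed, and AAEL021059 was also lower on day 20 (-1.79, FDR p-value 0.0302). AAEL023754, AAEL021059 and AAEL026034 had between 62.2% and 71.7% unique reads, and on unique reads the FDR p-value of AAEL021059 was 0.0515. Each of these 4 calls was lost without at least 2 single libraries, of which SF day 3 replicate 4 or 2 was always 1, with FDR p-values of up to 0.14. The largest LncRNA rise was AAEL025205, on the unplaced scaffold NIGP01000920, with 1.10, 1.18 and 1.51 CPM in BF day 10 and 0.320, 0.499 and 0.237 CPM in SF day 3 libraries (1.84 ± 0.42, SE, FDR p-value 0.0189). SF day 10 libraries held 0.95, 0.487 and 1.39 CPM of it and overlapped the BF day 10 libraries.

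A stretch of chromosome 3 held 3 falls close together, named here after their values were seen. AAEL006483 had 0.596, 0.311 and 0.726 CPM in BF day 10 and 3.08, 2.18 and 1.95 CPM in SF day 3 libraries (-2.13, FDR p-value 0.00701). AAEL006486 (15904196 to 15905517) averaged 7.66 CPM in BF day 10 and 15.2 CPM in SF day 3 (-0.99, FDR p-value 0.00131), and the LncRNA AAEL026555 (15925058 to 15925880) 0.199 CPM in BF day 10 and 1.01 CPM in SF day 3 (-2.32, FDR p-value 0.00627). All 3 were also lower in BF than in SF ovaries on day 20, with log2 fold changes of -1.58 for AAEL006483, -0.72 for AAEL006486 and -1.71 for AAEL026555.

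Among well expressed genes the changes were smaller. AAEL008015, on chromosome 1 (75581511 to 75657457, minus strand), had 53.1, 58.5 and 58.5 CPM in BF day 10 and 115, 116 and 107 CPM in SF day 3 libraries. It fell by 0.99 on the log2 scale (SE 0.12, FDR p-value 0.000401), stood at 113 CPM in SF day 10, and had 63.4 CPM in BF day 20 against 107 CPM in SF day 20. AAEL024583, with 31 exons on chromosome 2 (127259386 to 127404628, plus strand), had 59.6, 68.8 and 59.1 CPM in BF day 10 and 30.1, 35.0 and 28.5 CPM in SF day 3 libraries. It was 2.00-fold higher (log2 fold change 1.00 ± 0.12, SE, FDR p-value 0.000401), with 31.6 CPM in SF day 10, and with 66.9 CPM in BF day 20 and 33.1 CPM in SF day 20. Both calls held under each of the 20 alternatives that refitted them. The most abundant fall of over 0.58 on the log2 scale was AAEL003443, with 217, 227 and 226 CPM in BF day 10 and 367, 315 and 380 CPM in SF day 3 libraries (-0.66 ± 0.12, SE, FDR p-value 0.00584). AAEL027694 had 117, 116 and 87.1 CPM in BF day 10 and 62.3, 60.8 and 57.1 CPM in SF day 3 libraries (0.83 ± 0.21, SE, FDR p-value 0.0302), after a mean of 713 CPM in BF day 3. Its call was lost without any single library other than BF day 10 replicate 4, with an FDR p-value of up to 0.121. The lowest FDR p-value of all, 0.000143, was that of AAEL000581, which averaged 11 CPM in BF day 10 and 19.3 CPM in SF day 3.

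The plot of the named genes in 4 comparisons sets the blood meal beside time. AAEL008015 had a log2 fold change of -0.99 in BF day 10 over SF day 10 and -0.00 in SF day 10 over SF day 3. AAEL005826 differed from this pattern. It averaged 117 CPM in BF day 10, 89.7 CPM in SF day 10 and 57.8 CPM in SF day 3, and on day 20 had 104 CPM in BF and 100 CPM in SF ovaries (0.05, FDR p-value 0.922). Its call in BF day 10 over SF day 3 (1.02, FDR p-value 0.0433) was lost without any 1 of the 6 libraries, with an FDR p-value of up to 0.145.

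**Figure D3:**
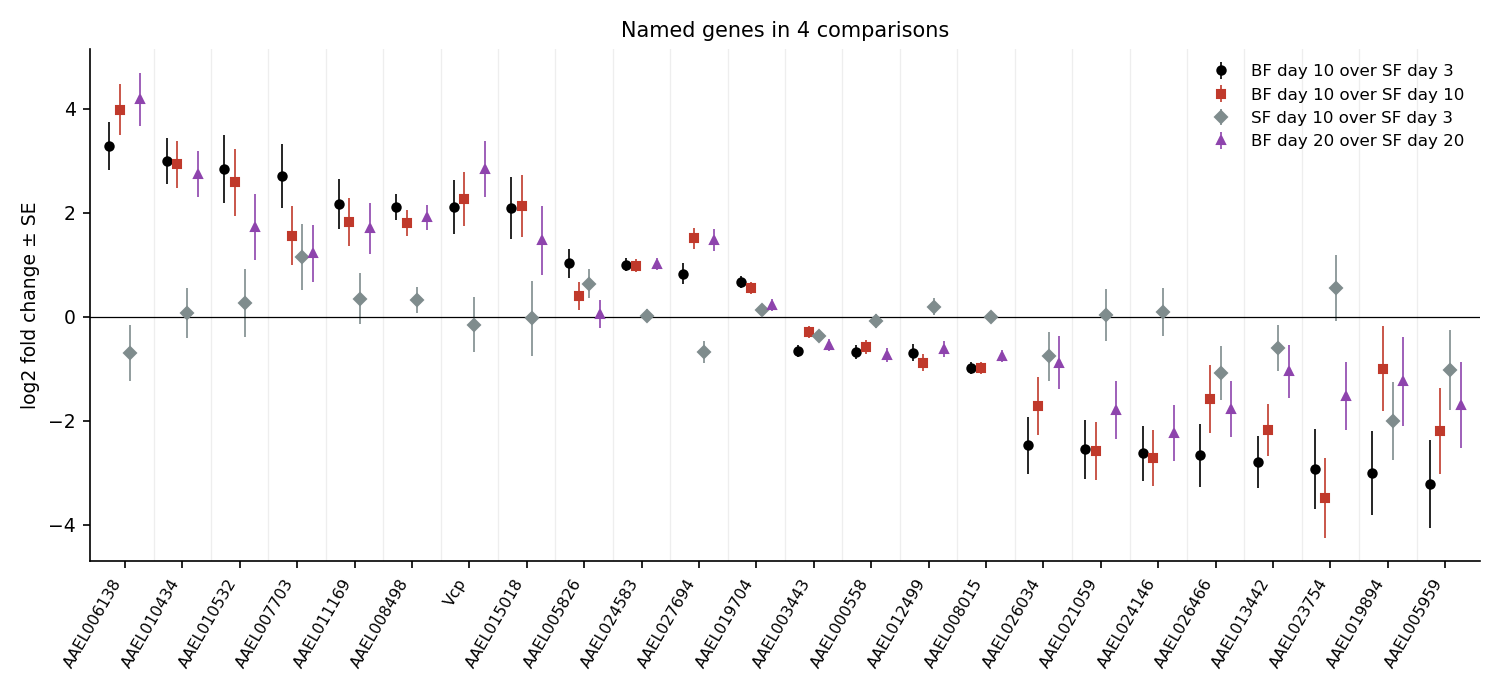
Log2 fold changes with their SE for the 8 largest and 4 most abundant rises (left) and the 4 most abundant and 8 largest falls (right), in BF day 10 over SF day 3 (black), BF day 10 over SF day 10 (red), SF day 10 over SF day 3 (grey) and BF day 20 over SF day 20 (purple). The first 3 share libraries and add up. For AAEL008498 the values are 2.11, 1.80, 0.32 and 1.91, and for AAEL005826 1.02, 0.39, 0.63 and 0.05.

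U1 small nuclear RNA (snRNA) is the RNA part of the particle that recognises the start of introns in pre-mRNA, and the genome carries many copies of its gene. The files name 15 U1 genes, of which 9 lie together on chromosome 3 (235739099 to 235782975). The U1 list was added after values had been seen, and its counts are a description. In this group 6 genes rose (*U1_4*, *U1_7*, *U1_8*, *U1_9*, *U1_10* and *U1_11*, with log2 fold changes from 1.18 to 1.74), and 0 of the other 6 U1 genes did. The calls made up 40% of the list, against 5.37% of all genes. *U1_8* had 2.49, 1.64 and 2.22 CPM in BF day 10 and 0.8, 0.665 and 0.434 CPM in SF day 3 libraries (1.74 ± 0.32, SE, FDR p-value 0.00627), with 99.7% of its reads unique to it. *U1_9* had 8.13, 3.68 and 5.24 CPM in BF day 10 and 2.22, 1.52 and 1.84 CPM in SF day 3 libraries (1.61 ± 0.28, SE, FDR p-value 0.00475). For *U1_10* and *U1_11* almost no read was unique, so reads of near-identical copies may have been split between them. The 3 members that did not pass the test had log2 fold changes of 0.62 (*U1_3*), 1.21 (*U1_5*) and 1.14 (*U1_6*). All 9 genes had BF day 10 libraries above their SF day 3 libraries without overlap, and 0 of the other 6 did (25.6% of all genes did not overlap, in either direction).

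Summed over the 9 genes, the level was 60.3, 35.1 and 47.8 CPM in BF day 10 and 24.7, 18.9 and 18.9 CPM in SF day 3 libraries. SF day 10 libraries held 21.4 ± 1.58 CPM (SD, n = 3), and BF day 3 libraries 27.7 ± 6.62 CPM (SD, n = 4). On day 20 the sum was 48.7 ± 9.73 CPM in BF and 24.7 ± 6.94 CPM in SF ovaries (SD, n = 3 each). The other 6 U1 genes carried most U1 reads, with 273 ± 22.8 CPM in BF day 10 and 289 ± 33.3 CPM in SF day 3, so that all U1 genes together came to 321 ± 35.1 CPM in BF day 10 and 310 ± 36.6 CPM in SF day 3 (SD, n = 3 each). These levels are not per length, but all 15 genes are 164 or 166 bases long. Counted on unique reads 4 U1 genes were called, without SF day 3 replicate 4 there were 3, and without replicate 4 of both groups there was 1. A list of 5 genes for U1 proteins and the cap-binding complex was also added after values had been seen. All 5 had negative log2 fold changes, where the median over all genes tested was 0.0074. The 1 call of the 5, against 5.37% of all genes, was a fall of *Cbp20*, the small subunit that holds the cap of nascent RNA (10.2 ± 1.55 CPM in BF day 10, 14.4 ± 1.46 CPM in SF day 3, SD, n = 3 each, -0.49, FDR p-value 0.0256). That call was lost without BF day 10 replicates 1 or 2 or SF day 3 replicates 2 or 4, with an FDR p-value of up to 0.144.

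**Figure D4:**
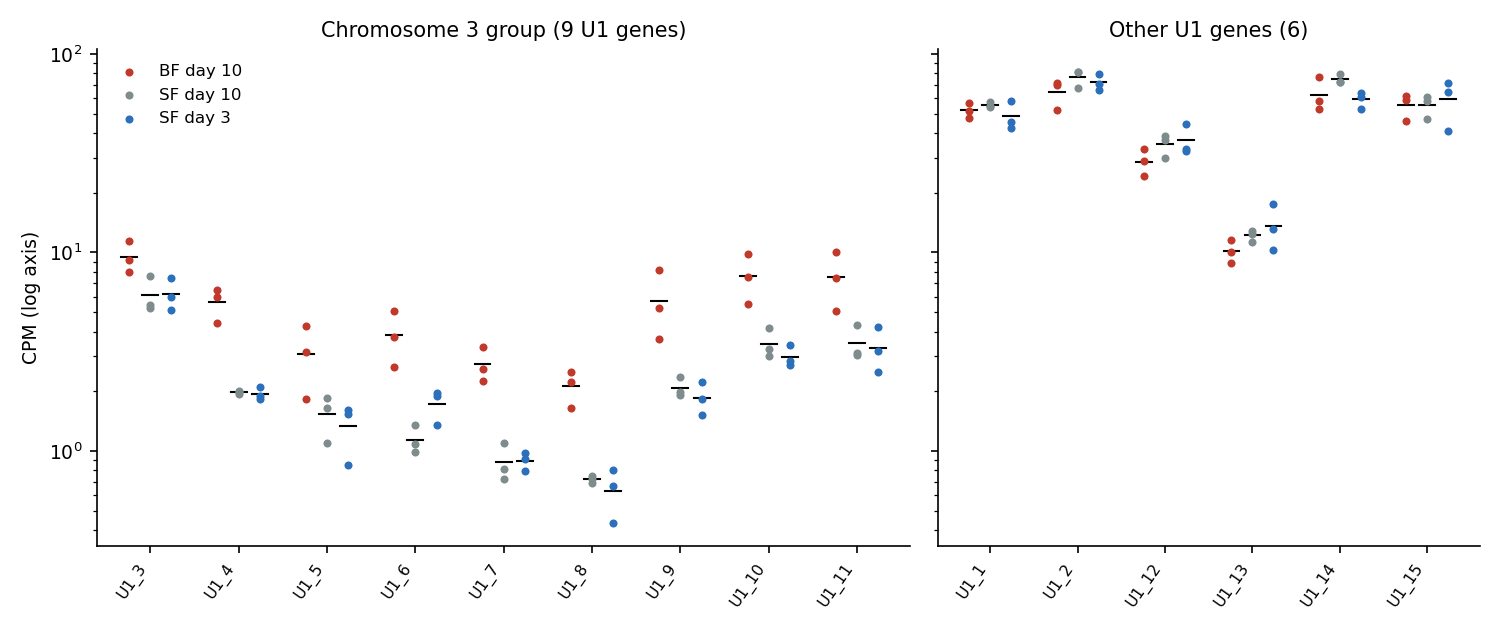
CPM on a log axis for the 9 U1 genes of the chromosome 3 group (left) and the other 6 U1 genes (right), 1 point per library, in the order BF day 10 (red), SF day 10 (grey) and SF day 3 (blue), with a bar at the mean. BF day 10 points lie above the SF day 3 points for each gene on the left and overlap them for each gene on the right.

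Gene families were followed by their symbols. Over the 38 lists that were not added after values had been seen, 30 of 698 tested genes were called (4.3%, against 5.37% of all genes), 21 higher and 9 lower. As a whole the lists were near the background. Of all 42 lists, 22 had 0 called members in edgeR's test. Of 50 named genes that were called, families included, 36 lost the call without 1 or more single libraries.

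Of chemosensory genes, 1 of 24 odorant-binding proteins (OBPs) and 1 of 18 odorant receptors rose, and 0 of 20 gustatory receptors and 0 of 16 ppk channels were called in edgeR's test (4 and 5 at an unadjusted p under 0.05). OBPs are small secreted carriers of odorants. *OBP15* had 3.96, 3.73 and 3.33 CPM in BF day 10 and 2.32, 1.85 and 2.03 CPM in SF day 3 libraries (0.83 ± 0.21, SE, FDR p-value 0.0331), and was also higher on day 20 (0.89, FDR p-value 0.00805). *Or55* had 2.35, 2.91 and 3.14 CPM in BF day 10 and 1.52, 1.39 and 1.20 CPM in SF day 3 libraries (1.03 ± 0.21, SE, FDR p-value 0.0123), and was higher on day 20 too (0.93, FDR p-value 0.00577). The calls of both were lost without BF day 10 replicate 2 or SF day 3 replicate 4, and that of *OBP15* also without BF day 10 replicate 1 or SF day 3 replicate 2. Of 73 tested G-protein coupled receptors (GPR symbols), 3 rose and 3 fell, or 8.22%, against 5.37% of all genes. The rises were *GPRFSH* (25.7 ± 2.66 CPM in BF day 10, 15.7 ± 3.17 CPM in SF day 3), *GPRNNA7* (17.9 ± 1.69 CPM in BF day 10, 12.9 ± 0.220 CPM in SF day 3) and *GPRSTN* (0.33). The falls were *GPROP10*, an opsin by its symbol (0.380 ± 0.0738 CPM in BF day 10, 0.905 ± 0.303 CPM in SF day 3), *GPRGBB1*, a GABA-B receptor by its symbol (39.6 ± 5.88 CPM in BF day 10, 69.3 ± 6.36 CPM in SF day 3), and *GPRFZ3*, a frizzled receptor of Wnt signals by its symbol (-0.51). Of the 20 alternatives, *GPRFSH* lost its call in 5, *GPRNNA7* in 6, *GPRGBB1* in 10 and *GPROP10* in 12, each time including BF day 10 replicates 1 and 2 and SF day 3 replicates 2 and 4 left out singly.

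Called immune genes rose more often than they fell, and most lists of them held 1 call or 0. Of 51 CLIP genes, serine proteases that act in cascades leading to melanin deposition and to Toll activation, 4 rose and 1 fell. That is 9.8%, against 5.37% of all genes, and the median of the list was 0.21. *CLIPE10* had 2.81, 4.24 and 2.06 CPM in BF day 10 and 0.760, 1.56 and 0.908 CPM in SF day 3 libraries (1.49 ± 0.35, SE, FDR p-value 0.0219). *CLIPC11* averaged 2.44 ± 0.279 CPM in BF day 10 and 1.09 ± 0.113 CPM in SF day 3 (1.15), and *CLIPB24* (0.81) and *CLIPE12* (0.64) rose as well. All 4 were higher in BF day 20 than in SF day 20. *CLIPB42* fell to 0.300 ± 0.0625 CPM in BF day 10, against 0.968 ± 0.138 CPM in SF day 3 (-1.68, FDR p-value 0.0235), and averaged 0.273 CPM in BF day 20 and 0.263 CPM in SF day 20 (0.02, FDR p-value 0.984). Without a single library 1 to 4 CLIP genes were called, 1 of them when BF day 10 replicate 1 or 2 or SF day 3 replicate 4 was left out.

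The adaptor *IMD*, which relays bacterial peptidoglycan signals in the immune deficiency pathway, had 14.1, 14.6 and 12.4 CPM in BF day 10 and 7.60, 9.63 and 7.82 CPM in SF day 3 libraries (0.72 ± 0.14, SE, FDR p-value 0.008). SF day 10 libraries averaged 6.42 CPM, and day 20 libraries 10.8 CPM in BF and 5.39 CPM in SF. Its call held without each single library, with an FDR p-value of at most 0.0481, and was the 1 call among 15 IMD and JAK-STAT genes. *TOLL5B*, a Toll receptor, had 11.7, 11.8 and 7.20 CPM in BF day 10 and 3.36, 3.83 and 2.21 CPM in SF day 3 libraries (1.70 ± 0.39, SE, FDR p-value 0.0219), the 1 call among 19 Toll pathway genes. It was 1.17 higher on day 20 (FDR p-value 0.0415), and its call was lost without BF day 10 replicate 1 or 2 or SF day 3 replicate 2 or 4 (FDR p-value of up to 0.0997). Of 17 leucine-rich repeat immune genes *LRIM10B* rose (1.16 ± 0.301 CPM in BF day 10, 0.497 ± 0.107 CPM in SF day 3, FDR p-value 0.0418), and of 15 C-type lectins, sugar-binding proteins, *CTLMA6* fell (-0.51, FDR p-value 0.0261). The first list had a median log2 fold change of 0.60, and the second of 0.06. In edgeR's test 8 and 2 of their members had an unadjusted p under 0.05, as had 21.2% of all genes. The call of *LRIM10B* was lost in 10 of the 20 alternatives, among them any single library left out other than BF day 10 replicate 1, and that of *CTLMA6* in 6, among them BF day 10 replicates 1 and 2 and SF day 3 replicate 4 left out. The 11 antimicrobial peptides, 5 lysozymes, 14 serpins, 7 prophenoloxidases, 10 PGRP and GNBP genes, 7 galectins and 15 scavenger receptors had 0 calls in edgeR's test, and between 0 and 2 members each at an unadjusted p under 0.05. By sign alone, 41 of 51 CLIP, 16 of 19 Toll pathway, 13 of 17 leucine-rich repeat immune and 9 of 10 PGRP and GNBP genes were higher in BF day 10. So were 9 of 14 serpins, 5 of 7 galectins, 5 of 7 prophenoloxidases and 4 of 5 lysozymes. Of C-type lectins, scavenger receptors and IMD and JAK-STAT genes, 8 of 15 each were higher, and of antimicrobial peptides 4 of 11. The median log2 fold change over all genes tested was 0.0074, and the signs of these lists were not tested.

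Of 91 cytochrome P450 (CYP) genes, which oxidise hormones and foreign compounds, 7 rose and 1 fell (8.79%, against 5.37% of all genes), with a median of 0.18. *CYP315A1*, the counterpart of *Drosophila* shadow, makes a late step of ecdysteroid synthesis. It had 6.05, 5.88 and 5.93 CPM in BF day 10 and 3.00, 2.93 and 3.57 CPM in SF day 3 libraries, nearly without spread in the first group (0.91 ± 0.14, SE, FDR p-value 0.00266). SF day 10 libraries averaged 2.48 CPM, and day 20 libraries 5.27 CPM in BF and 2.27 CPM in SF. It was called under each of the 20 alternatives that refitted it. The other 3 ecdysteroid P450 genes were not called: *CYP307A1* had a log2 fold change of -0.53, *CYP314A1* of -0.60 and *CYP18A1*, which inactivates ecdysteroids, of 0.24. *CYP6N13* averaged 2.18 ± 0.760 CPM in BF day 10 and 0.805 ± 0.429 CPM in SF day 3 (1.43, FDR p-value 0.0225), and *CYP9M6* (0.86), *CYP6Z9* (0.78), *CYP9J9* (0.78), *CYP9J2* (0.69) and *CYP4D23* (0.62) rose too. *CYP329B1* fell (40.9 ± 3.20 CPM in BF day 10, 54.5 ± 4.36 CPM in SF day 3, -0.42, FDR p-value 0.0331). When BF day 10 replicate 1 or 2 or SF day 3 replicate 2 or 4 was left out, 2 CYP genes were called. Of 20 glutathione transferases 1 fell, *GSTZ1*, whose class degrades tyrosine products in mammals. It had 10.5, 10.4 and 12 CPM in BF day 10 and 17.3, 16.3 and 19.6 CPM in SF day 3 libraries (-0.69 ± 0.10, SE, FDR p-value 0.00222), a call kept by each of the 20 alternatives. Of 17 antioxidant enzymes *TPX4*, a thioredoxin peroxidase, rose to 6.55 ± 0.0969 CPM in BF day 10, against 2.68 ± 0.345 CPM in SF day 3 (1.29, FDR p-value 0.0211), a call lost without BF day 10 replicate 1 or 2 or SF day 3 replicate 2 or 4.

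Of the nuclear receptors that answer ecdysone, *EcR* and its partner *USP* had log2 fold changes of 0.04 and 0.00, with 340 and 212 CPM on average in BF day 10. *HR4*, a repressor in the ecdysone cascade of *Drosophila*, was the 1 call of 8. It had 35.6, 38.9 and 27.4 CPM in BF day 10, 28.7, 28 and 30.2 CPM in SF day 10, and 43.9, 45.3 and 44.5 CPM in SF day 3 libraries. The log2 fold change was -0.39 in BF day 10 over SF day 3 (FDR p-value 0.0211), 0.23 in BF day 10 over SF day 10 (FDR p-value 0.087) and -0.62 in SF day 10 over SF day 3 (FDR p-value 0.0175). Its call in BF day 10 over SF day 3 was lost without 4 of the single libraries, BF day 10 replicates 1 and 4 and SF day 3 replicates 2 and 4 (FDR p-value of up to 0.079). The caspase *CASPS7*, 1 call of 16 caspases and their regulators, averaged 51.2 ± 3.94 CPM in BF day 10 and 61.8 ± 1.34 CPM in SF day 3 (-0.27, FDR p-value 0.0406). *CRY1*, a light-sensing clock protein in *Drosophila* and 1 of 5 clock genes listed after values had been seen, averaged 32.5 ± 4.21 CPM in BF day 10 and 23.4 ± 4.32 CPM in SF day 3 (0.47, FDR p-value 0.0497). The call of *CASPS7* was lost without any 1 of the 6 libraries, and that of *CRY1* without any but SF day 3 replicate 4.

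Genes of the basic cell machinery had 0 calls in edgeR's test of BF day 10 against SF day 3, where 5.37% of all genes were called. An unadjusted p under 0.05 was found for 21.2% of all genes. Of 71 cytosolic ribosomal protein genes 4 had an unadjusted p under 0.05, with log2 fold changes of the list from -0.17 to 0.22. The 58 mitochondrial ribosomal protein genes (5 at an unadjusted p under 0.05), 18 Mediator genes (5), 12 autophagy genes (2), 6 proteasome genes (0) and 10 PIWI and Argonaute genes of small RNA silencing (3) were likewise not called. By sign, 40 mitochondrial ribosomal protein, 14 Mediator, 10 autophagy and 6 proteasome genes were lower in BF day 10. Of cytosolic ribosomal protein genes 61 were higher, and the median log2 fold change over all genes tested was 0.0074. In BF day 10 over SF day 10, 17, 9, 5 and 3 genes of the first 4 kinds fell by edgeR's test, as did 10.7% of all genes. On day 20, 7, 6, 4 and 3 did, as did 12.1% of all genes. For BF day 10 over SF day 3, DESeq2 called 64 of the 743 listed genes in place of 39.

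**Figure D5:**
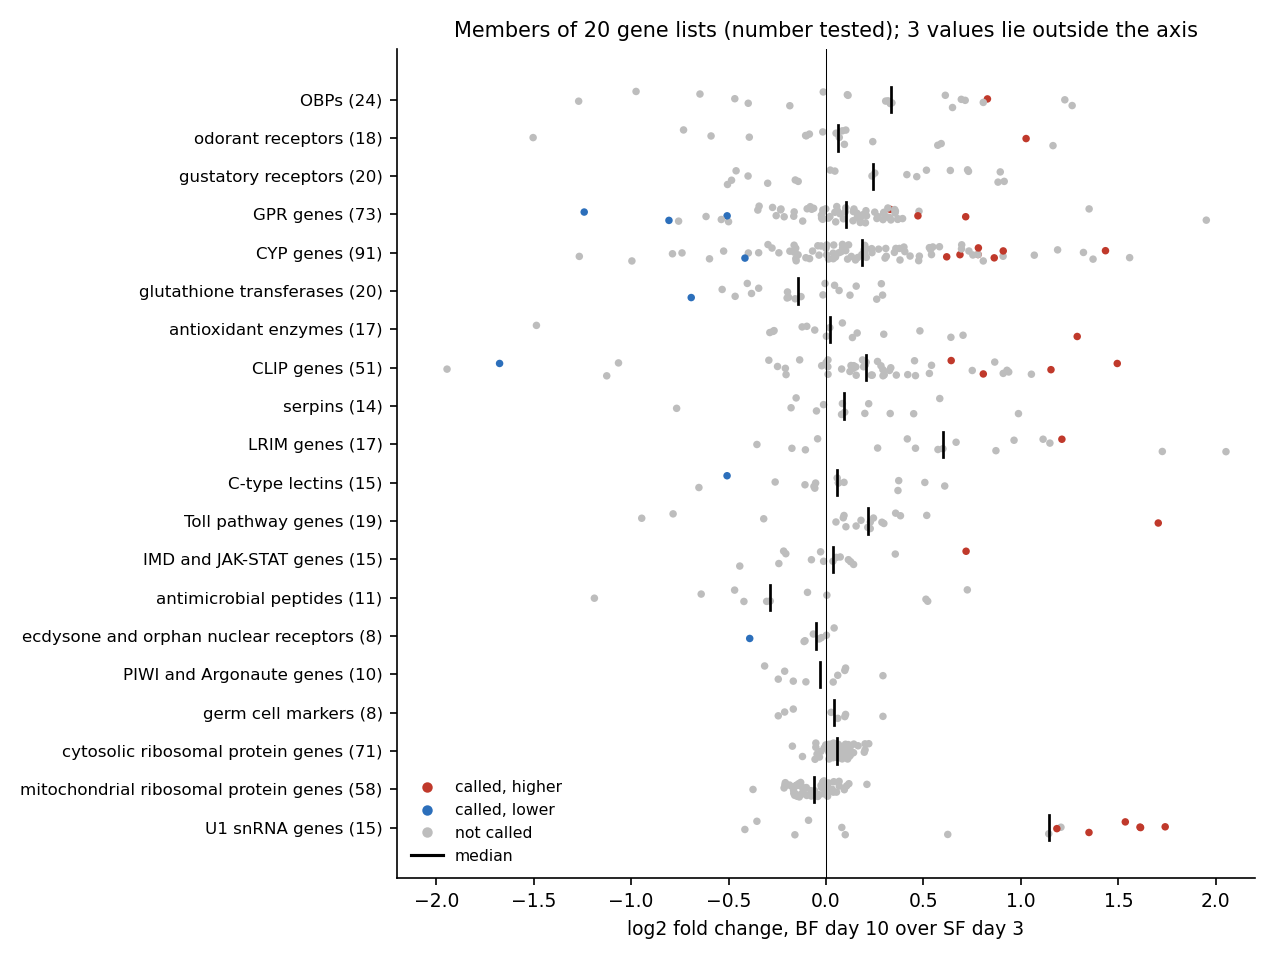
Log2 fold change, BF day 10 over SF day 3, of each tested member of 20 gene lists, with the number tested in brackets. Red points rose and blue points fell at an FDR p-value under 0.05, grey points were not called, a black bar marks the median, and 3 values lie beyond 2.2 on the axis. Cytosolic ribosomal protein genes lie between -0.17 and 0.22 and mitochondrial ones between -0.37 and 0.21, while the median of the U1 snRNA genes is 1.14.

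The study designed qPCR primers for 10 of the transcripts tested here, and AAEL006138 is 1 of them. AAEL005192 had 35.6, 6.72 and 14.6 CPM in BF day 10 and 3.60, 4.14 and 2.35 CPM in SF day 3 libraries. The groups did not overlap but the BF libraries varied widely, and the test was not passed (2.51 ± 0.94, SE, FDR p-value 0.143). AAEL004130 had 0.484, 0.311 and 0.443 CPM in BF day 10 and 2.34, 0.790 and 2.68 CPM in SF day 3 libraries (-2.22 ± 0.67, SE, FDR p-value 0.0626), and on day 20 it was lower in BF (0.177 CPM) than in SF ovaries (2.05 CPM, FDR p-value 0.00383). AAEL020455 passed the test at -4.87 (FDR p-value 0.00627), with 0.410, 0 and 0 CPM in BF day 10 and 4.54, 5.36 and 2.92 CPM in SF day 3 libraries, but 4% of its reads were unique and it did not pass with the 6 libraries fitted alone (FDR p-value 0.0735). AAEL019856, AAEL008417, AAEL023200, AAEL013218, AAEL017418 and *OBP46* were not called. *U2_8*, a U2 snRNA gene, had 94 reads in BF day 10 and 0 in SF day 3 libraries, at least 31.4-fold higher if the SF day 3 group is set to 3 reads in all, but 14% of its reads were unique and BF over SF day 10 was -0.13.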

How the data were processed

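Total RNA of pooled ovaries was depleted of ribosomal RNA and sequenced with a stranded kit, as the labels and methods state. The authors mapped read pairs to the AaegL5.0 genome in CLC Genomics Workbench v. 20 and deposited, for each library, counts per gene (total, unique and exon reads) and RPKM values, which are reads scaled by exon length and library total. The annotation release behind the counts, the strand setting and the treatment of reads with several positions were not stated for this step in the sources used here, beyond that default parameters of the software were used. All 19 libraries in 6 groups were fitted together to the deposited total gene counts with edgeR 4.0.16 (R 4.3.3): TMM scaling, genes kept by a count minimum of 10 and a total of 15, robust quasi-likelihood tests with 13 residual degrees of freedom, and Benjamini-Hochberg adjustment over 13904 genes. DEGs had an FDR p-value under 0.05. Log2 fold changes carry a prior count of 0.125, which understates those of weak genes. Total counts per library lay between 34651820 and 56274885, and intervals and floors cover counting error only.

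Genes named were the 8 largest rises and falls with at least 50% unique reads, no overlap between groups and, in the higher group, 10 reads or more per library, the 4 most abundant in each direction, the largest LncRNA changes, members of lists, and transcripts with qPCR primers. Members and lists were chosen with earlier results of these data known, and planned lists by product name were rebuilt from symbols. Genes named outside this rule are said to be so, apart from genes that overlap a named gene. AAEL000581 and AAEL022922 were also outside it and were named for their values. Single values were compared by exact permutation tests. The scripts were tested on simulated data with 13656 genes, where 85% of genes with a log2 change of 1 and 95% with 2 were recovered. The changed genes were drawn only from those averaging above about 1 CPM, and the counts carried no replicate effect. The rates therefore do not cover weaker genes, several of the largest rises and falls among them. DESeq2 1.42.0, limma-voom 3.58.1, other scalings, filters and read classes, and leaving out libraries were the alternatives. Python 3.11.15 with pandas 2.3.3 and matplotlib 3.10.9 made summaries and plots.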

Additional observations from a re-analysis of the deposited data

How the results depend on the processing

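The count of DEGs was 747, and between 145 and 711 when a single library was left out. Over these fits, genes past a log2 fold change of 1 numbered 52 to 155 (161 with all libraries), listed genes 9 to 39 (39), CYP genes 2 to 8 (8), CLIP genes 1 to 4 (5) and U1 genes 3 to 6 (6). The difference in the share of reads outside exons, 0.640 percentage points, lay between 0.399 and 1.07. Without replicate 4 of both groups, chosen after seeing the data, these counts were 119 DEGs (115 of them shared with the 747), 44 past 1, 5 listed, 2 CYP, 1 CLIP and 1 U1. At an FDR threshold of 0.01 they were 113, 36, 8, 2, 1 and 3. A test against a minimum log2 fold change of 1 (glmTreat) gave 0 in every class, with 167 genes at an unadjusted p under 0.05 and a lowest FDR p-value of 0.133. DESeq2 called 1260 DEGs (736 shared), 64 listed and 8 CLIP genes. Limma-voom called 668 DEGs and 5 CYP genes, and the 6 libraries fitted alone 515 DEGs and 3 CYP genes. On the 500 most variable genes the gap on the first component was 74.9% of its range. The cause of these differences was not tested, other than that fewer libraries or a stricter threshold enter by construction. Of single genes, AAEL008417 (-3.16, not called) had 0.23 without SF day 3 replicate 2 and passed the test at -3.72 without SF day 3 replicate 1, and no called named gene changed sign.

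With the replicate number as a block there were 1292 DEGs (745 shared) and 67 listed genes, and with the block on the 6 libraries alone 931 DEGs and 64 listed genes. Deviations of same-numbered libraries from their group means correlated at 0.088, 0.0211 and 0.207, and those of different-numbered libraries at -0.145 to 0.0646. BF day 10 replicate 2 correlated best with SF day 3 replicate 1 (0.0646), and the second principal component set replicate 4 of both groups apart. Whether the numbers pair the libraries was not settled, and the main fit used no block. If they do, its counts leave that pairing out.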
